A study of Homo sapiens with 8 samples.

Results

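Expression of 32 genes of sterol and fatty acid synthesis was followed in a human osteosarcoma cell line after transfection with a NELL1 knockout plasmid. The genes were taken by symbol from a list of pathway members, out of 54174 symbols in the deposited table. The list was chosen with earlier results of these data known. All 32 had a value in all 8 libraries. They were set apart into a sterol branch of 18 enzyme genes, 5 genes that sense or carry sterols or encode the sterol regulatory element-binding proteins (SREBPs), and a fatty acid branch of 9 enzyme genes.

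The cells were 143B, an established osteosarcoma line grown in medium with fetal bovine serum. The control group was 4 libraries of cells transfected with a vector plasmid, and the knockout group was 4 libraries of cells transfected with a plasmid named for NELL1 knockout, each taken 48 h after transfection. The submitters call the 4 libraries of a group biological replicates. The transfection was transient and the titles name no selected clone. The knockout columns of the deposited table are headed SCC, an abbreviation that the labels do not explain. Whether the knockout libraries came from bulk cultures or from selected clones is therefore not known here. In bulk RNA, fewer cells of a kind and less RNA per cell cannot be told apart.

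Cholesterol is built from acetyl-CoA through mevalonate, squalene and lanosterol, and fatty acids are built from the same acetyl-CoA by carboxylation, chain extension and desaturation. Both branches are under transcriptional control by the SREBPs, which stay in the endoplasmic reticulum while sterols are plentiful, held there by the escort protein SCAP and the retention protein INSIG1. When sterols fall, SCAP carries the SREBPs to the Golgi, where proteases release their active part. The product of SREBF2 acts mainly on sterol genes and that of SREBF1 mainly on fatty acid genes, and INSIG1 is itself an SREBP target.

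All values are deposited log2 expression values, normalized between libraries. Their unit before the logarithm is not given in the sources used here, so levels are compared between libraries for each gene and not between genes. The read depth of the libraries is unknown. NELL1 itself lay near the bottom of the range. It was -6.97, -6.97, -4.53 and -5.00 in control libraries 1 to 4 and -4.82, -5.87, blank and -6.96 in knockout libraries 1 to 4, so the groups overlapped and the transcript did not check the labels. Of the markers examined, VIM lay between 10.19 and 10.86 and RUNX2 between 0.05 and 0.43 in the 8 libraries. The collagen gene COL1A1 lay between -1.45 and 0.90, and COL1A2 had a value in 2 of 4 libraries of each group, none above -4.82. The leukocyte gene CD68 lay between 5.54 and 5.90 and the epithelial gene EPCAM between 1.83 and 2.76 in the 8 libraries. SPARC lay between 5.23 and 6.15. The epithelial gene CDH1 had a value in 2 control libraries only, none above -7.40. KRT19, also epithelial, had values in 2 control and 4 knockout libraries, none above -2.85. The endothelial genes PECAM1 and CDH5 had no value above -3.31. The adipocyte genes ADIPOQ and LEP, the leukocyte genes PTPRC and CD3E and the hepatocyte gene TTR were blank throughout. The adipocyte gene PLIN1 had values in 4 control and 3 knockout libraries, none above -4.62. The hepatocyte genes ALB and APOA1 had no value above -3.29.

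The libraries did not stand equally apart. Over the 9016 genes tested, the SD of the difference was 0.12 between knockout libraries 1 and 2 and 0.13 between knockout libraries 3 and 4, but 0.46 to 0.50 between those pairs. Control libraries 1, 2 and 4 were as close to each other, with an SD of 0.1 between 1 and 2, 0.13 between 2 and 4 and 0.15 between 1 and 4. Control library 3 was the most distant control, with an SD of 0.29 against control library 1. Results are therefore given also with each close knockout pair averaged, and by replicate set (replicates 1 and 2, replicates 3 and 4). Averaging left the 4 control libraries separate, so it does not deal with closeness among the controls.

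Promoter sequences of genes of the sterol branch and of the sensing and SREBP genes INSIG1, STARD4 and SREBF2 are shown first. RefSeq windows of GRCh38.p14 that run from 250 bases before to 50 bases after a transcription start were found for 28 of the 32 genes, 38 windows in all. Shown 5′ to 3′ are the 6 genes with the largest rise among those that passed the test and have a single window, and SREBF2, whose window alone among the 38 holds a sterol element. Capitals mark CCAAT or its reverse complement ATTGG, the box bound by NF-Y, a factor known to work beside the SREBPs, and in SREBF2 also the sterol element TCACNCCAC, the core of a known SREBP site.
INSIG1, chr7:155297628-155297927, plus strand: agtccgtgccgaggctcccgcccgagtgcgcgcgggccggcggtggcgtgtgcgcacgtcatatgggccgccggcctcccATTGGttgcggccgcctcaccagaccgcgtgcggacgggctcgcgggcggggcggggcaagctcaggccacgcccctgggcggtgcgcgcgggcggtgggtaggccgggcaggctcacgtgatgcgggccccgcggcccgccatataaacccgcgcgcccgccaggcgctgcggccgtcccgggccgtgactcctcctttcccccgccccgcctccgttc
STARD4, chr5:111512486-111512785, minus strand: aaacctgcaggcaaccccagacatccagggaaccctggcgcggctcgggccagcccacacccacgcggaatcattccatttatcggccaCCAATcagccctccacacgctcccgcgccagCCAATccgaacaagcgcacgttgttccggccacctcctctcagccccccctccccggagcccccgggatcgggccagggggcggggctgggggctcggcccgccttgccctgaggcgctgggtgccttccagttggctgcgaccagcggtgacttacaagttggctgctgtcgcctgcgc
FDPS, chr1:155308616-155308915, plus strand: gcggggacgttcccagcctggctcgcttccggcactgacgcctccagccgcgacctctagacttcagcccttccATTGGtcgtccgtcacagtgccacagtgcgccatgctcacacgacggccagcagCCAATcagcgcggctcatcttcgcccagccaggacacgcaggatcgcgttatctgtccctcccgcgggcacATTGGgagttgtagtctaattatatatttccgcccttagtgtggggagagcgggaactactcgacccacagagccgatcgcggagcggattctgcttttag
MSMO1, chr4:165327419-165327718, plus strand: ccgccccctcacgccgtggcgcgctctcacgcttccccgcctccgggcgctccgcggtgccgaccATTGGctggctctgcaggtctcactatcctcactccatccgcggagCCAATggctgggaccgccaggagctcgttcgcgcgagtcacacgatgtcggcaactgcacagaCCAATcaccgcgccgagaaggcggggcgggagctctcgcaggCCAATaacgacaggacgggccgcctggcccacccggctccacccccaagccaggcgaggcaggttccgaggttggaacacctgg
MVD, chr16:88663042-88663341, minus strand: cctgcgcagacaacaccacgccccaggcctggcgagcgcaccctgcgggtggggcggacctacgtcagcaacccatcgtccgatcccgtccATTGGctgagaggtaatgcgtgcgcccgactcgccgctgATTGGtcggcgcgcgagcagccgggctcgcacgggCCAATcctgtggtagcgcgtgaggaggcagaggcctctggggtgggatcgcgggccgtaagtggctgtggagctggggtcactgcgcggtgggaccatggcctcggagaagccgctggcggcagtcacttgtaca
HSD17B7, chr1:162790452-162790751, plus strand: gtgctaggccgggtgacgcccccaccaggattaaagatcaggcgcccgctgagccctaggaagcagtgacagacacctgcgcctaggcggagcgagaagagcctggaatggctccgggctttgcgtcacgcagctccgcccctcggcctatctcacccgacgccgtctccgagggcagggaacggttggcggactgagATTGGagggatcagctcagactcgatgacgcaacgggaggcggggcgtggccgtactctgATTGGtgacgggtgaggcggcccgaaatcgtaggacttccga
SREBF2, chr22:41832855-41833154, plus strand: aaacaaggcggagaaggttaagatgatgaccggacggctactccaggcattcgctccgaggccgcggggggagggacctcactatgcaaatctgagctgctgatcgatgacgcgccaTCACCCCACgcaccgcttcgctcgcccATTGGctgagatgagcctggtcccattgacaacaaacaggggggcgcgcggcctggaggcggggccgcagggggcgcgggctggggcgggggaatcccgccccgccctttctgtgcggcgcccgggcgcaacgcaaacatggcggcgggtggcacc

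Each of these 7 windows holds at least 1 CCAAT box, with 4 in MSMO1, 3 in FDPS and MVD, 2 in STARD4 and HSD17B7 and 1 in INSIG1 and SREBF2. CYP51A1 also passed the test and has a single window, but its smaller rise left it out of those shown. The window of CYP51A1 holds no CCAAT box. On either strand CCAAT was present in 15 of 20 windows of the sterol branch (75%) and in 8 of 13 windows of the fatty acid branch (61.5%). In the sensing and SREBP genes 3 of 5 windows held CCAAT (60%). It was present in 35.8% of 10769 windows of all tested genes and in 34.6% of 35116 windows of all genes. The GC box GGGCGG was present in 90% of sterol, 100% of sensing and 76.9% of fatty acid windows, against 68.6% for all tested genes. The E-box CACGTG was present in 15%, 40% and 7.69% of these windows, against 9.62% for all tested genes. Several genes have more than 1 window, and windows of the same gene can overlap. The sterol element TCACNCCAC, which overlaps no CCAAT box in the SREBF2 window, was present on either strand in 1 of the 38 windows and in 1.13% of all windows. A match is a string of letters and not a measured binding site, and a missing match says only that these letters are not in the window.

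Genes of the sterol branch were higher in the knockout libraries from the first step of mevalonate synthesis to the late sterol enzymes. Of its 17 tested genes, 8 rose and none fell in the limma fit over 9016 genes (Benjamini-Hochberg adjusted p under 0.05). Among all tested genes 13.1% were called, with 7.02% that rose and 6.1% that fell. The median difference of the branch, knockout minus control, was 0.49 on the log2 scale, beside 0.01 over all tested genes, and all 17 differences were above 0 (that of SC5D by less than 0.01), where 51.3% of all tested genes were. The knockout values lay wholly above the control values for 9 of the 17 genes, against 12.5% of all tested genes. The 18th gene, MVK, fell below the filter (mean log2 value of at least 1) and was not tested. Of the 5 sensing and SREBP genes 2 rose, and of the 9 fatty acid genes none passed the test. Whether the branches differed from each other was not tested.

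**Figure D1:**
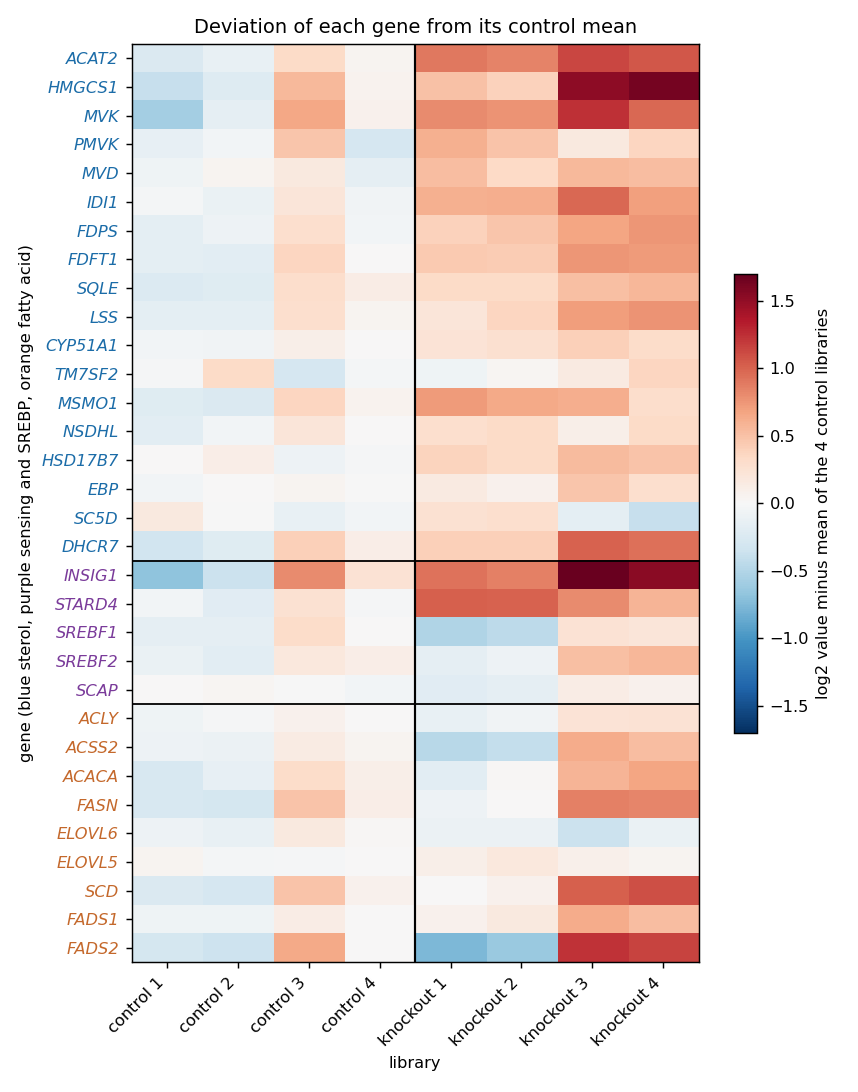
Heat map of the 32 genes (rows, in pathway order) by library (columns), coloured by the log2 value minus the mean of the 4 control libraries, with rules between the sterol, sensing and fatty acid genes. Sterol rows are red in nearly all knockout columns, control library 3 is the reddest control column, and most fatty acid rows are red in knockout libraries 3 and 4 and pale or blue in knockout libraries 1 and 2.

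The first steps, from acetyl-CoA to farnesyl pyrophosphate, held the largest differences of the branch. ACAT2, the cytosolic thiolase that joins acetyl-CoA units, was 3.78, 3.91, 4.36 and 4.08 in control libraries 1 to 4 and 4.93, 4.87, 5.16 and 5.08 in knockout libraries 1 to 4. The groups did not overlap, and the means were 4.03 ± 0.25 and 5.01 ± 0.13 (SD, n = 4 each). ACAT2 rose by 0.98 ± 0.13 (SE; 1.97-fold; limma adjusted p = 0.00427), which placed it at rank 32 from the top of all tested genes. Its exons share 1106 bases with those of SOD2 on the opposite strand, and SOD2 was also higher, by 0.45 (limma adjusted p = 0.0186). Whether the authors' counting used strand is not given in the sources used here, and the part of such reads in the result was not tested. In all, 14 of the 32 genes share exon bases with another gene of GENCODE 29.

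HMGCS1, the synthase that makes HMG-CoA, had a larger difference but a wider spread. It was 1.68, 1.85, 2.62 and 2.13 in the controls and 2.57, 2.46, 3.59 and 3.70 in the knockouts. Control library 3 lay above knockout libraries 1 and 2, and the difference of 1.02 ± 0.33 (SE) did not pass the test (limma adjusted p = 0.0744). A replicate block brought the limma adjusted p to 0.0226. Each knockout library was above the control of its own number, by 0.61 to 1.57.

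MVK, mevalonate kinase, was -0.73, -0.30, 0.51 and -0.08 in the controls and 0.66, 0.62, 1.09 and 0.83 in the knockouts. All 4 knockout values lay above all 4 control values, and the difference was 0.95. In the fit without a filter, over 13943 genes, its limma adjusted p was 0.057, and 7 of 18 sterol genes rose, where 4.65% of all genes did. With a filter at a mean of 3, 6 of 9 sterol genes rose, where 7.98% of all genes did. PMVK, which adds the next phosphate, differed by 0.40 ± 0.17 (SE; limma adjusted p = 0.151) with overlapping groups.

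MVD and IDI1 follow, the decarboxylase that makes isopentenyl pyrophosphate and the isomerase that converts it. MVD was 2.58, 2.70, 2.81 and 2.50 in the controls and 3.18, 2.99, 3.20 and 3.18 in the knockouts. It rose by 0.49 ± 0.09 (SE; limma adjusted p = 0.0104). IDI1 was 1.79, 1.71, 2.02 and 1.76 in the controls and 2.43, 2.44, 2.79 and 2.52 in the knockouts. It rose by 0.73 ± 0.10 (SE; 1.65-fold; limma adjusted p = 0.00552), and neither gene's groups overlapped. The rise of IDI1 was even across the same-numbered libraries, from 0.64 to 0.77.

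FDPS, farnesyl pyrophosphate synthase, stands where the sterol route parts from other isoprenoids. Its values were 3.63, 3.70, 4.08 and 3.74 in the controls and 4.18, 4.26, 4.46 and 4.54 in the knockouts, without overlap. It rose by 0.57 ± 0.12 (SE; limma adjusted p = 0.0195). GENCODE names 8 pseudogenes of FDPS, 3 of CYP51A1 and 2 of HSD17B7, so the values of these genes are uncertain to the extent that reads were shared with such copies.

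The 3 genes of the squalene steps were higher by similar amounts. FDFT1, squalene synthase, was 3.55, 3.53, 4.07 and 3.71 in the controls and 4.16, 4.14, 4.46 and 4.44 in the knockouts. It rose by 0.59 ± 0.14 (SE; limma adjusted p = 0.0294), with no overlap. SQLE, the epoxidase that follows, differed by 0.43 ± 0.13 (SE; limma adjusted p = 0.0639), and its highest control value of 4.04 lay just under its lowest knockout value of 4.06. LSS, which closes the ring to lanosterol, was 1.72, 1.72, 2.17 and 1.94 in the controls and 2.09, 2.26, 2.60 and 2.65 in the knockouts. Control library 3 lay above knockout library 1, and the difference of 0.51 ± 0.15 (SE) gave a limma adjusted p of 0.0622. With the replicate block SQLE and LSS passed the threshold (limma adjusted p = 0.036 and 0.0246). In that fit 11 of 17 sterol genes rose, where 5.68% of all tested genes did.

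Beyond lanosterol the differences were smaller, with a median of 0.28 over 8 genes, of which 3 rose. CYP51A1, the lanosterol demethylase, was 4.70, 4.68, 4.84 and 4.74 in the controls and 4.97, 5.01, 5.15 and 5.05 in the knockouts. It rose by 0.31 ± 0.07 (SE; limma adjusted p = 0.0249) with no overlap and with the narrowest range of same-numbered differences in the branch, 0.27 to 0.33. MSMO1, the C4 methyl oxidase, was 2.73, 2.69, 3.30 and 2.99 in the controls and 3.65, 3.57, 3.55 and 3.23 in the knockouts. It rose by 0.57 ± 0.15 (SE; limma adjusted p = 0.0402), but control library 3 lay above knockout library 4, and its limma adjusted p was 0.0665 with the replicate block and 0.0647 without a filter. HSD17B7, the 3-keto reductase of the same C4 demethylation, was 2.43, 2.54, 2.35 and 2.41 in the controls and 2.81, 2.75, 2.97 and 2.92 in the knockouts. It rose by 0.43 ± 0.07 (SE; limma adjusted p = 0.0101), and here control library 3 was the lowest control.

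DHCR7, the last reductase of one arm of the pathway, was 2.79, 2.90, 3.52 and 3.22 in the controls and 3.51, 3.51, 4.11 and 4.04 in the knockouts. The only contact between its groups was control library 3, and the difference of 0.69 ± 0.20 (SE; limma adjusted p = 0.0546; 0.0125 with the replicate block) missed the threshold. NSDHL, the decarboxylating dehydrogenase of C4 demethylation, and EBP, the sterol isomerase, differed by 0.26 and 0.25 (limma adjusted p = 0.113 for each). TM7SF2, a sterol C14 reductase, differed by 0.12 (95% interval -0.19 to 0.44; limma adjusted p = 0.599). SC5D, the C5 desaturase, differed by 0.00 (95% interval -0.36 to 0.36; limma adjusted p = 0.999). These last 2 genes were the exceptions of the branch: their sign turned between the replicate sets, with 0.20 and then -0.20 for SC5D and -0.17 and then 0.41 for TM7SF2.

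**Figure D2:**
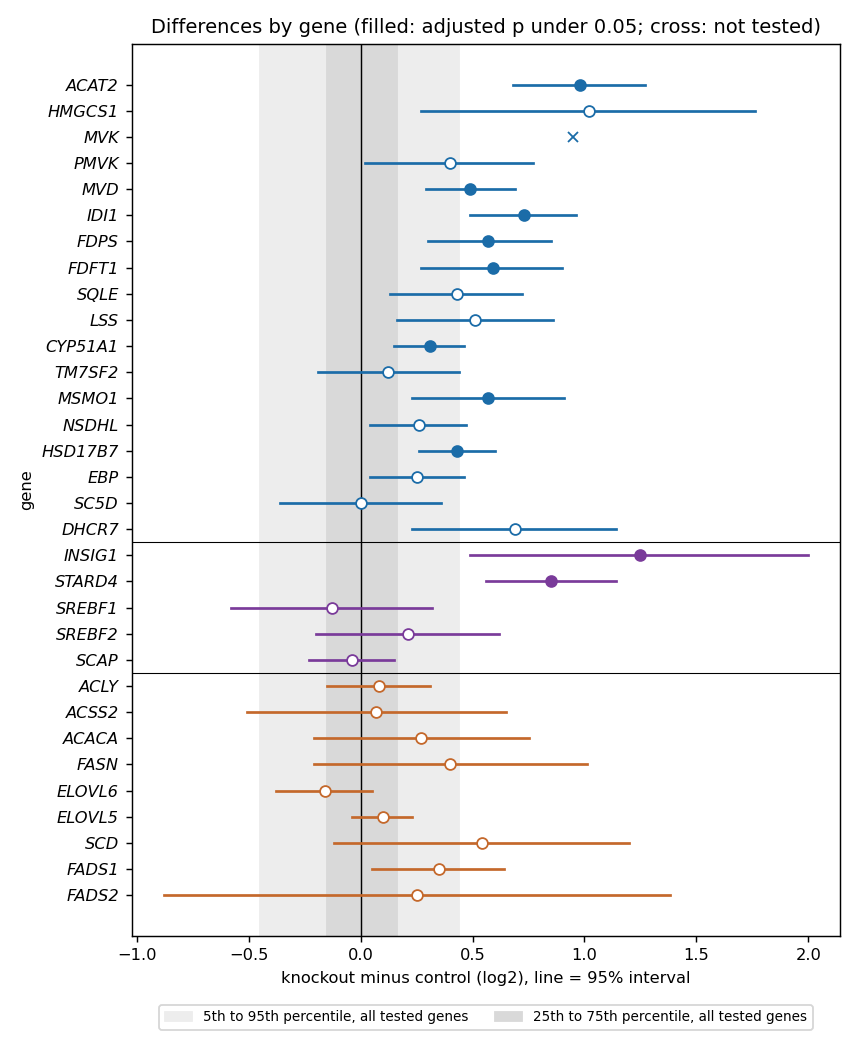
Knockout minus control difference (log2, x axis) of each gene in pathway order (y axis), with the 95% interval of the limma fit; filled points passed an adjusted p of 0.05 and the cross marks MVK, which was not tested. Of the 18 sterol points 16 lie to the right of the inner grey band; the bands span the 25th to 75th (-0.15 to 0.16) and 5th to 95th (-0.45 to 0.44) percentiles of all tested genes, while the fatty acid intervals other than that of FADS1 cross 0.

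Among the sensing genes, the 2 that rose were INSIG1 and STARD4. INSIG1 was 1.06, 1.38, 2.55 and 1.99 in the controls and 2.66, 2.60, 3.42 and 3.28 in the knockouts. Its groups did not overlap, although control library 3 came within 0.05 of knockout library 2, and the controls spanned a wider range than the knockouts. INSIG1 rose by 1.25 ± 0.33 (SE; 2.37-fold; limma adjusted p = 0.0422), rank 11 from the top of all tested genes, and by 0.86 to 1.6 between same-numbered libraries. Without a filter on low values its limma adjusted p was 0.067. STARD4, a soluble carrier that moves cholesterol between membranes, was 1.44, 1.3, 1.75 and 1.47 in the controls and 2.50, 2.49, 2.29 and 2.07 in the knockouts. It rose by 0.85 ± 0.13 (SE; 1.80-fold; limma adjusted p = 0.00629), and unlike INSIG1 it was highest in knockout libraries 1 and 2.

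The genes of the transcription factors and their escort did not pass the test. SREBF2 was 2.63, 2.56, 2.92 and 2.85 in the controls and 2.59, 2.66, 3.25 and 3.31 in the knockouts, a difference of 0.21 (95% interval -0.20 to 0.62; limma adjusted p = 0.471). SREBF1 was 2.79, 2.79, 3.25 and 2.94 in the controls and 2.43, 2.49, 3.18 and 3.15 in the knockouts, a difference of -0.13 (95% interval -0.58 to 0.32; limma adjusted p = 0.696). Knockout libraries 1 and 2 had the lowest SREBF1 values of all 8. SCAP was 4.04, 4.06, 4.02 and 3.99 in the controls and 3.84, 3.88, 4.15 and 4.10 in the knockouts, a difference of -0.04 (95% interval -0.23 to 0.15; limma adjusted p = 0.812). For each of these 3 genes the knockout pairs lay on opposite sides of the control mean. These are transcript levels, and the cleaved, active form of the SREBP proteins was not measured.

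**Figure D3:**
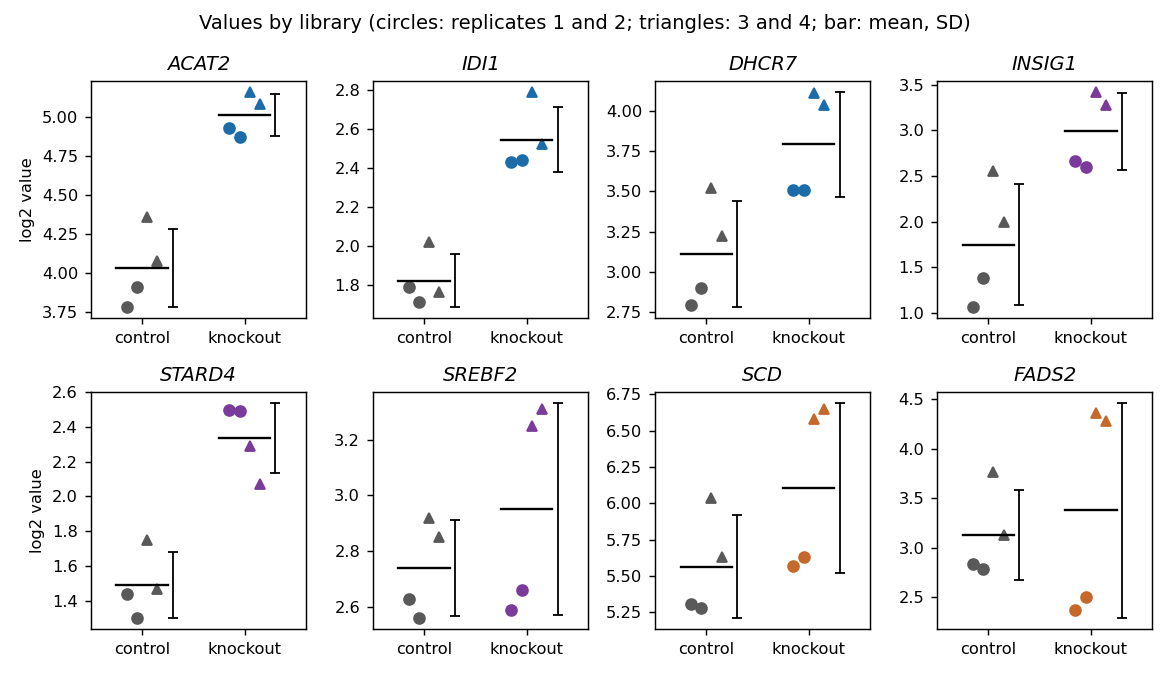
Log2 values of 8 genes in each library, with control (grey) and knockout (coloured) points, circles for replicates 1 and 2 and triangles for replicates 3 and 4; horizontal lines are means and vertical bars the SD (n = 4), and each panel has its own y axis. Knockout points of ACAT2, IDI1, INSIG1 and STARD4 lie above all controls, whereas those of FADS2 lie in pairs below (2.37 and 2.50) and above (4.36 and 4.28) the controls.

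No gene of the fatty acid branch passed the test (limma, adjusted p under 0.05), where 13.1% of all tested genes were called. The 95% interval of FADS1, which is not adjusted for the number of genes, lay above 0. The median difference was 0.25. SCD, the stearoyl-CoA desaturase, was 5.31, 5.28, 6.04 and 5.63 in the controls and 5.57, 5.63, 6.58 and 6.65 in the knockouts, a difference of 0.54 ± 0.29 (SE; limma adjusted p = 0.253). FASN, the fatty acid synthase, was 3.92, 3.89, 4.67 and 4.30 in the controls and 4.11, 4.20, 5.04 and 5.02 in the knockouts, a difference of 0.40 ± 0.27 (SE; limma adjusted p = 0.359). FADS1, the delta-5 desaturase, was 5.2, 5.2, 5.40 and 5.28 in the controls and 5.34, 5.44, 5.90 and 5.80 in the knockouts, a difference of 0.35 ± 0.13 (SE; limma adjusted p = 0.116). In all 3 genes each knockout library lay above the control of its own number, but the groups overlapped: control library 3 lay above both knockout libraries 1 and 2 for SCD and FASN, control library 4 did so for FASN, and control library 3 lay above knockout library 1 for FADS1. The 95% intervals ran from -0.12 to 1.2 for SCD, from -0.21 to 1.01 for FASN and from 0.05 to 0.64 for FADS1, and each includes the sterol median of 0.49.

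FADS2 and ACSS2 had values on opposite sides of the controls in the knockout pairs, and were singled out after their values were seen. FADS2, the delta-6 desaturase, was 2.83, 2.78, 3.77 and 3.13 in the controls and 2.37, 2.50, 4.36 and 4.28 in the knockouts. ACSS2, which makes acetyl-CoA from acetate, was 3.32, 3.31, 3.55 and 3.46 in the controls and 2.94, 3.00, 4.04 and 3.93 in the knockouts. For both genes knockout libraries 1 and 2 lay below every control and knockout libraries 3 and 4 above every control, and the overall differences of 0.25 and 0.07 gave limma adjusted p-values of 0.775 and 0.885. How many of all tested genes show this pattern was not counted. Over all tested genes 43.0% differed in sign between the replicate sets, so the pattern is not shown to be particular to these genes. ACLY, which makes acetyl-CoA from citrate, had 5.12 and 5.19 in knockout libraries 1 and 2 and 5.48 and 5.50 in knockout libraries 3 and 4, against 5.18 to 5.32 in the controls, so that knockout library 2 lay within the control range. FADS1 and FADS2 are neighbours whose exons share 142 bases on opposite strands.

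The other 3 fatty acid genes differed little or not uniformly. ACACA, the acetyl-CoA carboxylase of the cytosol, ran from 2.25 to 2.83 in the controls and from 2.34 to 3.19 in the knockouts, a difference of 0.27 (95% interval -0.21 to 0.75; limma adjusted p = 0.429). The elongase gene ELOVL5 ran from 5.57 to 5.65 and from 5.65 to 5.78, a difference of 0.10 (95% interval -0.04 to 0.23; limma adjusted p = 0.303). The elongase gene ELOVL6 ran from 2.19 to 2.48 and from 1.95 to 2.21, a difference of -0.16 (95% interval -0.38 to 0.05; limma adjusted p = 0.274), and was the fatty acid gene with a negative difference.

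Taken by replicate set, 16 of 18 sterol genes were higher in the knockout libraries both in replicates 1 and 2 and in replicates 3 and 4, the exceptions being TM7SF2 and SC5D. Over all tested genes 30.4% were higher in both sets and 43.0% differed in sign between them. For the tested sterol genes the first set gave a median difference of 0.54 and the second set 0.53, where all tested genes gave 0.03 and 0.00. The median of the fatty acid branch was 0.12 and 0.48, with 5 of 9 genes higher in both sets and 4 differing in sign. Within the sterol branch the leading genes also differed between the sets: MSMO1 was higher by 0.89 and 0.24, while HMGCS1 was higher by 0.75 and 1.28. Of the sensing genes, STARD4 was higher by 1.13 and 0.57. These differences by set are values from 2 libraries a group and were not tested.

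**Figure D4:**
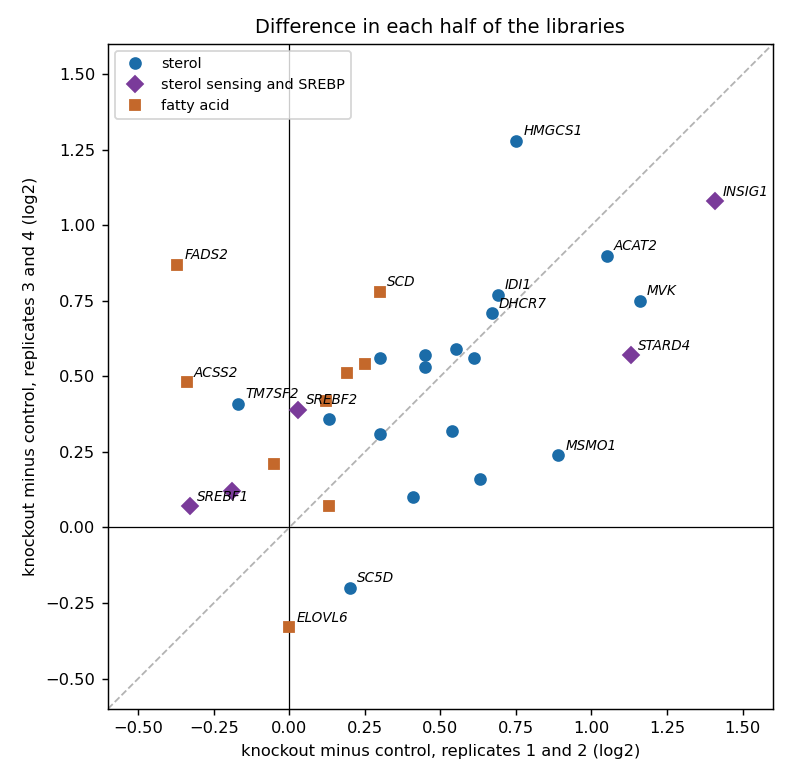
Knockout minus control difference (log2) of the 32 genes in replicates 1 and 2 (x axis) against replicates 3 and 4 (y axis), with circles for sterol, diamonds for sensing and SREBP and squares for fatty acid genes and a dashed line of equal difference. All but 2 circles lie above 0 on both axes, and FADS2 (-0.37 and 0.87) and ACSS2 (-0.34 and 0.48) lie to the left of 0.

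Control library 3 was high for most of these genes. It was the highest control for 15 of 18 sterol genes, 4 of 5 sensing genes and 8 of 9 fatty acid genes. How often it was the highest control over all tested genes was not counted. It was also the most distant control over all tested genes, so these counts are not shown to be particular to the pathway. The values that follow are those of control library 3 and of fits without single libraries. The median deviation of control library 3 from the control mean was 0.29 over the sterol genes, and that of the knockout libraries was 0.40, 0.38, 0.58 and 0.55. Without control library 3, 13 of 17 sterol genes rose (limma, adjusted p under 0.05), where 8.21% of all tested genes did. Without control library 1, 2 or 4, or without knockout library 3, 4 of 17 sterol genes rose, where 2.54%, 2.51%, 2.35% and 4.17% of all tested genes did. Without knockout library 1, 2 or 4, 8, 8 and 7 sterol genes rose, where 5.18%, 4.86% and 5.46% of all tested genes did. MVD, IDI1, HSD17B7, ACAT2 and STARD4 passed the threshold whichever single library was left out, and FDPS, FDFT1, CYP51A1, MSMO1 and INSIG1 did not (highest limma adjusted p of 0.0706, 0.0922, 0.0886, 0.117 and 0.123).

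With each close knockout pair averaged into 1 library, IDI1 alone of the 31 tested genes passed (limma adjusted p = 0.0469). In that fit 0.488% of all tested genes rose. The adjusted p-values of the other 9 genes that had risen were 0.0512 for ACAT2, 0.0516 for STARD4 and 0.0793 to 0.164 for the rest. With a term for replicates 1-2 against 3-4 and no averaging, 13 of 17 sterol genes, both INSIG1 and STARD4, and 3 of 9 fatty acid genes (FASN, SCD and FADS1) rose, where 13.8% of all tested genes did. The fit with this term still counts the libraries of a close knockout pair as independent. It also takes the spread shared by each replicate set out of the error, so it does not replace averaging. Knockout libraries 1 and 2 alone, against the 4 controls, gave 8 sterol genes that rose and 1 fatty acid gene, ACSS2, that fell, where 21.4% of all tested genes rose and 19.2% fell. Knockout libraries 3 and 4 alone, against the same 4 controls, gave 12 sterol and 7 fatty acid genes that rose, where 20.6% of all tested genes did. SREBF1 and SCAP fell in the first of these fits (limma adjusted p = 0.0235 and 0.0406), and SREBF2 rose in the second, by 0.54 (limma adjusted p = 0.00712). Both fits were chosen after seeing the data and count a close knockout pair as independent libraries. Their p-values therefore leave out the spread between the knockout pairs. With all 8 libraries the limma adjusted p was 0.696 for SREBF1, 0.812 for SCAP and 0.471 for SREBF2.

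Lists of 84 further genes around the pathway were examined in the same fit. Of the 62 tested, 7 rose and 4 fell, with a median difference of 0.12, where 7.02% of all tested genes rose and 6.1% fell. In other sterol and isoprenoid synthesis, 1 of 12 tested genes rose, LBR, which encodes a nuclear membrane protein with sterol C14 reductase activity like that of TM7SF2. LBR rose from 3.45 ± 0.06 to 4.06 ± 0.07 (SD, n = 4 each), by 0.62 ± 0.06 (SE; limma adjusted p = 0.00152; 0.0299 with averaged pairs). In the list of other SREBP processing genes, 1 of 10 rose and 2 fell. ERLIN1, an endoplasmic reticulum membrane protein, rose by 0.41 (limma adjusted p = 0.0066). SEC24D, a coat protein of vesicles that leave the endoplasmic reticulum, fell by 0.91 (limma adjusted p = 0.00301; 0.027 with averaged pairs). MBTPS1, the Golgi protease that makes the first cut in the SREBPs, fell by 0.31 (limma adjusted p = 0.0462).

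Of 11 tested genes that take up, store or move sterols 2 rose and 2 fell, beside the same shares of 7.02% and 6.1% over all tested genes, and the median difference was -0.03. SOAT1, which esterifies cholesterol for storage, rose by 0.51 (limma adjusted p = 0.0196), and SCARB1, a lipoprotein receptor, rose by 0.33 (limma adjusted p = 0.0276). NPC1, which exports cholesterol from lysosomes, fell by 0.35 (limma adjusted p = 0.0294), and OSBP, a sterol exchanger named as the remaining call, fell by 0.27 (limma adjusted p = 0.0319). In other fatty acid synthesis, elongation and desaturation 1 of 15 tested genes rose, HACD2, a dehydratase of the elongation cycle (by 0.39, limma adjusted p = 0.00944). In fatty acid activation and glycerolipid synthesis 2 of 14 rose, the acyl-CoA synthetase gene ACSL3 (by 0.51, limma adjusted p = 0.0327) and the acyltransferase gene GPAM (by 0.40, limma adjusted p = 0.0398). Of these 11 genes, LBR and SEC24D alone passed with averaged knockout pairs (limma adjusted p of 0.0691 to 0.169 for the others). With the replicate block MBTPS1, NPC1, SCARB1, OSBP and GPAM did not pass (limma adjusted p = 0.0918, 0.0572, 0.0692, 0.0563 and 0.0896). Without a filter on low values MBTPS1, OSBP, ACSL3 and GPAM did not pass (limma adjusted p = 0.0721, 0.0534, 0.0543 and 0.0643). LBR, SEC24D, ERLIN1 and HACD2 passed whichever single library was left out. SOAT1 did not pass without control library 1, 2 or 4 (highest limma adjusted p of 0.0697). MBTPS1, NPC1, SCARB1, OSBP, ACSL3 and GPAM did not pass without control library 1, 2 or 4 or knockout library 3, nor without knockout library 1 (MBTPS1, NPC1, SCARB1, OSBP and GPAM), 2 (MBTPS1, SCARB1 and GPAM) or 4 (NPC1, OSBP and ACSL3). Their highest limma adjusted p-values were 0.131, 0.0940, 0.0903, 0.106, 0.1 and 0.121.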

How the data were processed

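RNA of 4 control and 4 knockout libraries was measured by stranded total RNA sequencing. The deposited table holds log2 values, 1 per gene symbol and library; base 2 was inferred from their range. Every library has the same mean (1.07), lowest (-10.48) and highest (12.13) value, which points to quantile normalization by the authors; such values cannot show a shift shared by most genes. Partek 7.0, bcl2fastq and GRCh38 are named in the submitters' processing notes, without roles; aligner, counting and annotation are not given in the sources used here. Groups came from the titles.

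The values were fitted with limma 3.58.1 in R 4.3.3 (knockout minus control, no covariate) on 9016 genes, those measured in every library whose mean reached 1, with Benjamini-Hochberg adjustment over all of them and a threshold of 0.05. The fit was tested on simulated data. The members and gene lists, and the alternatives that treat the close knockout pairs, were chosen with earlier results of these data known; the fits of knockout libraries 1 and 2 only and 3 and 4 only were chosen after seeing the data. Values in every library are given for the genes past the threshold, the 5 sensing genes and the 3 of each branch with the largest difference among the others; of each wider list up to 3 called genes are named; others are named after their values were seen. Deviations from the group means correlated between same-numbered libraries in all 4 pairs (0.20 to 0.29), which by the rule used pairs them. Differently numbered libraries within replicates 1-2 or 3-4 also correlated (0.11 to 0.31), and control library 1 did so more with knockout library 2 (0.31) than with knockout library 1 (0.24). Across the 2 sets the correlations were -0.3 to -0.15. Pairs by number therefore cannot be told apart from the split into sets. The main fit uses no pairing, and the replicate block is an alternative that also counts close libraries as independent. Positions are those of RefSeq on GRCh38.p14; exon overlaps and pseudogene names are from GENCODE 29.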

Additional observations from a re-analysis of the deposited data

Results flagged for a closer look

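Of 64 groups of 4 values (32 genes in 2 groups), 2 held a library far from the other 3 by Dixon's criterion (gap over range above the 95% critical value), where chance flags about 1 group in 20. MVD in knockout library 2 was 2.99, with the other knockout libraries at 3.18 to 3.20. ELOVL6 in knockout library 3 was 1.95, with the others at 2.20 to 2.21.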

How the results depend on the processing

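Over all tested genes 1183 were called, with 729 at a mean of at least 3, 108 with averaged knockout pairs, 2274 with the term for replicates 1-2 against 3-4, 3654 with knockout libraries 1 and 2 only, 3732 with knockout libraries 3 and 4 only, and 391 to 1353 when a library was left out. Sterol calls (8) became 1 with averaged pairs and 13 with the term, and 4 to 13 when a library was left out. Fatty acid calls (0) became 3 with the term, 1 with knockout libraries 1 and 2 only and 7 with knockout libraries 3 and 4 only, and were 0 whichever library was left out. Sensing and SREBP calls (2) became 1 with no filter, 0 at a mean of at least 3 (where 1 of these 5 genes was tested), 0 with averaged pairs, and 1 to 2 when a library was left out. A pseudocount of 1, a variance trend, median centring and a repeated quantile normalization changed none of the calls of the 31 tested members.

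With the replicate block 924 genes were called over the table, with 11 sterol, 0 fatty acid and 2 sensing calls. It added HMGCS1, SQLE, LSS and DHCR7, removed MSMO1 and changed no other call of a member.

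Signs turned only for members that were not called. With knockout libraries 1 and 2 only, the differences were -0.02 for TM7SF2, -0.11 for SREBF2, -0.04 for FASN, -0.08 for ACACA, -0.09 for ACLY, -0.69 for FADS2 and -0.44 for ACSS2. With knockout libraries 3 and 4 only, they were -0.28 for SC5D, 0.22 for SREBF1 and 0.10 for SCAP. SC5D was -0.01 with median centring and with the repeated quantile normalization. When a library was left out, SC5D ranged from -0.10 to 0.13, SCAP from -0.09 to 0.01, FADS2 from -0.08 to 0.59 and ACSS2 from -0.12 to 0.25. The cause of these changes was not tested. With no counts in the table, no limit from read depth can be given.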
